A study of Mus musculus with 72 samples.

Results

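Tumours that received radiation alone were compared with tumours that received only a control antibody. The comparison took the 9 mice labelled as the radiation group (RT, mice 19 to 27) and the 9 mice labelled as the isotype control group (control, mice 1 to 9), 18 of the 36 mice of the series and 36 of its 72 libraries. Membership followed the group suffix in the sample names and used no measured value. All mice were female BALB/c of 6 to 12 weeks bearing 4T1, a line of mammary carcinoma cells from that strain, which had been placed in thigh muscle on day -6. Treatment was given on day 0 and tumours were taken on day 6. Control mice received 400 µg of an isotype antibody, and RT mice received the same antibody and radiation. Radiation dose and schedule are not stated in the labels used here, and the tissue field of the labels says orthotopic although the cells were placed in the thigh. The other groups, used here only for a comparison of the radiation change, were 9 mice given 492 µg of bintrafusp alfa (BA, mice 10 to 18), which joins a PD-L1 antibody to a receptor trap for TGF-β, and 9 mice given BA and radiation (BART, mice 37 to 45). Each tumour came from its own mouse. RNA was read with 2 targeted amplicon panels, an immuno-oncology panel and a custom panel covering fibrosis, TGF-β targets, and DNA damage and its repair, which together held 1224 genes. Of these 1038 had enough counts to be tested.

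Ionizing radiation breaks DNA. Damaged cells stabilise the transcription factor p53, which switches on cell cycle inhibitors such as p21, and repair the breaks by end joining or by homologous recombination. DNA and RNA that reach the cytosol can be bound by sensors such as cGAS and RIG-I, which lead to type I interferon and to the interferon-stimulated genes. Irradiated tumours are also known to release chemokines that draw monocytes and other leukocytes, while lymphocytes are among the most radiosensitive cells of the body.

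A library of panel 1 held 1060824 to 1956764 counts in control and 1526991 to 2616197 counts in RT tumours, and a library of panel 2 held 341400 to 841046 and 546144 to 775133 counts. RT libraries were thus deeper on average, and 406 genes were called after all libraries had been thinned to a common depth. Levels are given as CPM, counts scaled per library to 1000000 counts of its panel, as the lowest, median and highest mouse of the 9. An amplicon is amplified with its own efficiency, so levels of different genes are not comparable with each other. The groups overlapped for each gene below that is not said to separate them.

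Of the 1038 tested genes 432 (41.6%) were called at an adjusted p under 0.05, 213 (20.5%) higher and 219 (21.1%) lower in RT than in control tumours. Counts given below for gene lists are to be read against these shares. Most of the called changes were small: the median absolute log2 fold change of the called genes was 0.41, and 64 of them, 48 higher and 16 lower, exceeded 1. The 9 RT values lay wholly above the 9 control values for 54 genes (5.2%) and wholly below them for 25 genes (2.41%). The split between higher and lower depended on scaling. When scaled by the 9 genes that the panels mark as references, 422 genes were higher and 79 lower, and the median log2 fold change of all tested genes was 0.19 in place of -0.01. All 9 reference genes had themselves a negative log2 fold change under the scaling used here, from -0.41 to -0.06, and 3 of them were called lower. A fall of less than about that shift is therefore relative to the bulk of the panel genes, and calls that were lost with reference-gene scaling are named with each group. None of the genes named below changed direction with a call under any scaling tried.

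Control mouse 8 and control mouse 6 stood apart in their group, and so did RT mouse 24 in its own. In control mouse 8, interferon-γ-inducible genes stood far above the other control mice. Ciita, the activator of class II genes, was at 688 CPM there and at 56.2 to 126 CPM in the other 8 control mice. Control levels of Ifng, the interferon-γ transcript, were 0, 3.01 and 61.2 CPM (lowest, median and highest), and the highest was in mouse 8. Control mouse 6 deviated most from its group over all tested genes, with a median absolute log2 deviation of 0.294, against 0.087 to 0.161 in the other control mice and 0.066 to 0.172 in RT mice. Its level of Mb, the myoglobin of muscle, was 4777 CPM against 245 to 785 CPM in the other control mice. RT mouse 24 had more T cell transcript than any other RT mouse, with Cd3e, a chain of the T cell receptor complex, at 31.5 CPM against 1.51 to 7.69 CPM. Leaving out control mouse 8 gave 452 called genes, leaving out control mouse 6 gave 483, and leaving out RT mouse 24 gave 437. Results that rest on these mice are given with and without them.

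**Figure D1:**
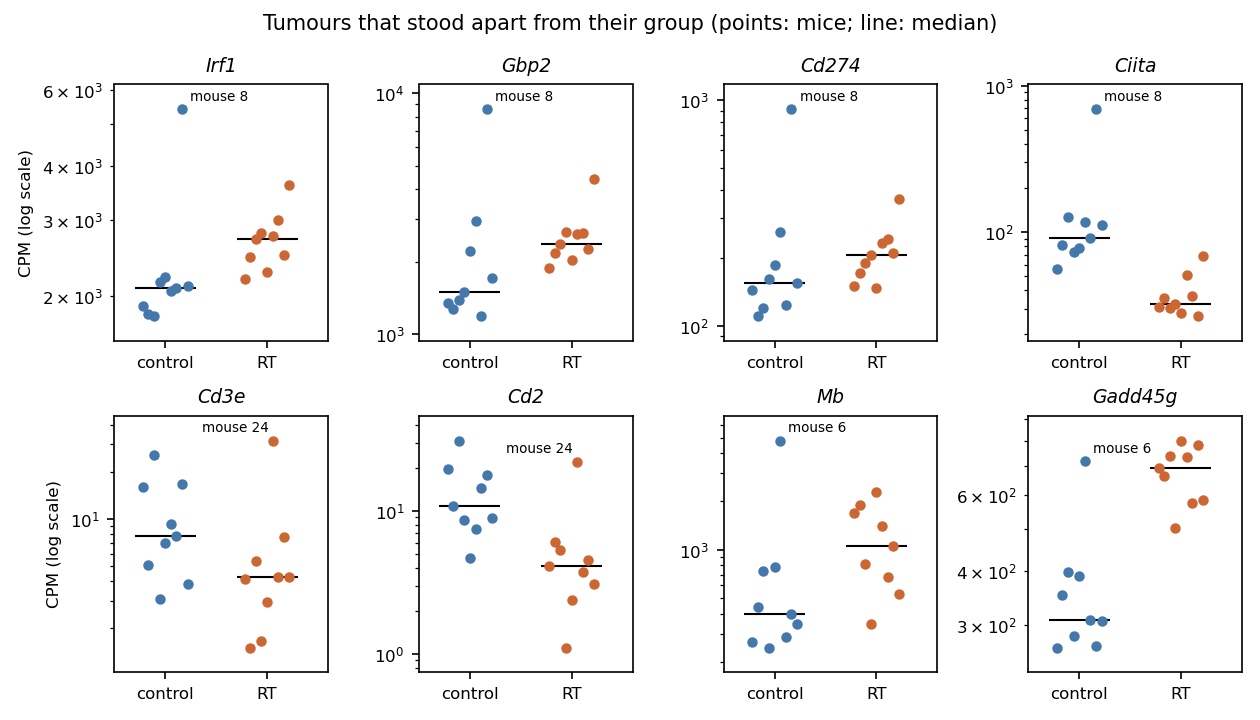
CPM on a log scale of 8 genes in each tumour of the control and RT groups (points are mice, lines are medians). Mouse 8 lies above the other control mice for Irf1, Gbp2, Cd274 and Ciita, RT mouse 24 above the other RT mice for Cd3e and Cd2, and control mouse 6 above the other control mice for Mb and Gadd45g.

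Effectors of the type I interferon response rose in RT tumours. Of 12 tested effectors of this class 11 rose and none fell, with a median log2 fold change of 0.95 against -0.01 over all tested genes, and the counts were the same with reference-gene scaling and without control mouse 8. Oasl1, a relative of the 2'-5'-oligoadenylate synthetases, was at 138, 195 and 231 CPM in control and 1153, 1192 and 1476 CPM in RT tumours. The lowest RT mouse was thus far above the highest control mouse, and the rise was 6.78-fold (log2 fold change 2.76, SE 0.11, adjusted p = 3.24e-21). Its amplicon lies in a coding exon on chromosome 5 at 114928141 to 114928230 (GRCm38).

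Genes of the oligoadenylate synthetase family, whose active members activate the RNA-degrading enzyme RNase L, rose with it. Oas2 went from 69.2, 115 and 177 CPM to 452, 539 and 668 CPM (log2 fold change 2.23, SE 0.18, adjusted p = 4.53e-12), and Oas3 from 69, 85.7 and 222 CPM to 233, 292 and 419 CPM (log2 fold change 1.54, SE 0.23, adjusted p = 1.86e-06). For both genes all 9 RT mice lay above all 9 control mice. Oas1a rose 2.38-fold and Oas1b 1.66-fold, with overlapping groups; members of this family share similar sequence, so counts could be split between copies. Ifit3, which binds viral RNA together with its IFIT partners, was at 142, 218 and 471 CPM in control and 705, 1041 and 1182 CPM in RT tumours, again with no overlap (log2 fold change 1.90, SE 0.22, adjusted p = 1.38e-08). Zbp1, a sensor of nucleic acid in the Z form, rose 2.22-fold and Bst2, which tethers budding virus, 1.67-fold. The smaller rises were those of Ifitm3, which hinders virus entry (1.4-fold), of Adar, which edits double-stranded RNA (1.24-fold), and of Ifi27 (1.24-fold). Gbp2, a guanylate-binding protein that also responds to interferon-γ, was not called at 1189, 1496 and 8588 CPM against 1885, 2374 and 4405 CPM (log2 fold change 0.06, SE 0.32, adjusted p = 0.908). Its highest control value was mouse 8, without which the log2 fold change was 0.58, adjusted p = 0.0521.

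The promoters of 4 members that rose are shown because interferon acts through a short element, the interferon-stimulated response element, to which the factor ISGF3 binds. Each line gives 200 bases upstream of the transcript start in RefSeq (GRCm38.p6), read 5′ to 3′ along the gene, and capitals mark matches to GAAANNGAA on either strand (on the opposite strand as the reverse complement). Overlapping matches were counted separately.
Ifit3, chr19:34583329-34583528, plus strand: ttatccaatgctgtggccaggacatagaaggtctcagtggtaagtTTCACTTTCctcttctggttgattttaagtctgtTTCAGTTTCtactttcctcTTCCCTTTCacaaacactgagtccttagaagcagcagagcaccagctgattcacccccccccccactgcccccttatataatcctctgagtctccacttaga
Oas3, chr5:120777660-120777859, minus strand: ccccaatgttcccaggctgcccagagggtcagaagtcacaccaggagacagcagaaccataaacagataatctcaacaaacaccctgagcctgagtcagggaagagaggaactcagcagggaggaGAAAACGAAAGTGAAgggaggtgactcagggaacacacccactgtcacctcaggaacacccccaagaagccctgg
Oas1a, chr5:120907526-120907725, minus strand: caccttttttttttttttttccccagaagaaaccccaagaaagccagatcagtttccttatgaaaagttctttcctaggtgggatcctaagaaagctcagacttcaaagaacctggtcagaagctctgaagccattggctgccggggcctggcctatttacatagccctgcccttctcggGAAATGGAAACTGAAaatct
Bst2, chr8:71537473-71537672, minus strand: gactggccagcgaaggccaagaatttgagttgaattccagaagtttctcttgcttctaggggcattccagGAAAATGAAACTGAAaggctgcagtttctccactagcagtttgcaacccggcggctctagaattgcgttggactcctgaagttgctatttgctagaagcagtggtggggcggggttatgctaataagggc
Ifit3 held 3 matches, and the others held 2 overlapping ones each, spaced so that the motif is repeated after 6 bases. In windows of 250 bases, 6 of the 8 effectors found in the promoter table had a match (75.0%), namely Adar, Bst2, Gbp2, Ifit3, Oas1a and Oas3. The share was 11.1% among the 776 tested genes found in the table, 12.5% among those that rose and 8.18% among all 27025 genes of the table. Among genes that answer mainly to interferon-γ, a list described below that also holds Gbp2, 5 of 7 in the table had a match (71.4%). Of the 10 tested genes of that list 7 were not called, so the motif was not particular to lists that rose. Oasl1, Irf7 and Ddx58 had no match in this window. A match is a description of the letters, not of a bound site.

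Among sensors of nucleic acid and their adaptors 5 of 12 rose and 1 fell (9 rose and none fell with reference-gene scaling). Ddx58, the RNA sensor RIG-I, was at 252, 329.6 and 394 CPM in control and 539, 631 and 729 CPM in RT tumours with no overlap (log2 fold change 0.93, SE 0.09, adjusted p = 6.55e-10). Tlr7, an endosomal receptor for single-stranded RNA, rose 1.68-fold with 8 of 9 RT mice above every control mouse. Ikbke, a kinase that activates the interferon regulatory factors, rose 1.44-fold without overlap, and Trex1, the exonuclease that clears cytosolic DNA, 1.36-fold with 8 of 9 RT mice above every control mouse (log2 fold change 0.44, SE 0.08, adjusted p = 5.47e-05). Tmem173, which encodes the DNA-sensing adaptor STING, fell by 0.21 on the log2 scale (adjusted p = 0.00197), and this call was lost with reference-gene scaling (adjusted p = 0.983). Cd14, a coreceptor of Toll-like receptors, was not called (log2 fold change 0.02, SE 0.12, adjusted p = 0.921).

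Of 16 tested interferon ligands, receptors and signalling genes 2 rose and 4 fell (5 and 2 with reference-gene scaling). Irf7, the interferon regulatory factor that amplifies type I interferon, rose 3.57-fold, from 294, 433 and 826 CPM to 1298, 1541 and 2233 CPM without overlap (log2 fold change 1.84, SE 0.19, adjusted p = 2.56e-09). Irf5, a regulator of inflammatory genes in myeloid cells, rose by 0.34 on the log2 scale (adjusted p = 0.0021). Irf4, a factor of lymphocytes and plasma cells, was low throughout, at 4.44, 7.46 and 11.3 CPM against 2.01, 3.56 and 7.14 CPM, and fell by 0.87 (adjusted p = 0.00365). Irf3, which the sensing pathways activate by phosphorylation, fell by 0.43 (adjusted p = 0.000185). The kinase Jak2 and the interferon-γ receptor chain Ifngr1 fell by 0.36 and 0.32, but both calls were lost with reference-gene scaling (adjusted p = 0.0902 and 0.129). The type I ligands themselves had too few counts to be tested. Ifna2, an interferon-α whose gene has many similar copies, had no count in any of the 9 control mice, which allows up to 0.22 CPM over the group (3 counts), and 0 to 6 counts per mouse in RT tumours, with a count in 8 of 9 mice and 25 counts in all (1.42 CPM). The same held for 9 BA mice, with no count, against 9 BART mice, with 14 counts in 8 mice. The pattern was chosen after the values were seen and was not tested. Ifnb1, interferon-β, had 1 to 4 counts per mouse in control and 2 to 8 in RT tumours. Ifng was not called (log2 fold change -1.70, SE 0.77, adjusted p = 0.0742), although it was called lower with DESeq2, after thinning, and without control mouse 1 or 7 or RT mouse 27, with log2 fold changes from -2.36 to -1.75; without control mouse 8 its log2 fold change was 0.09, adjusted p = 0.939. Irf1, a factor induced by interferon-γ, was not called (0.17, adjusted p = 0.418) but was higher in RT without control mouse 8 (0.40, adjusted p = 0.00389).

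**Figure D2:**
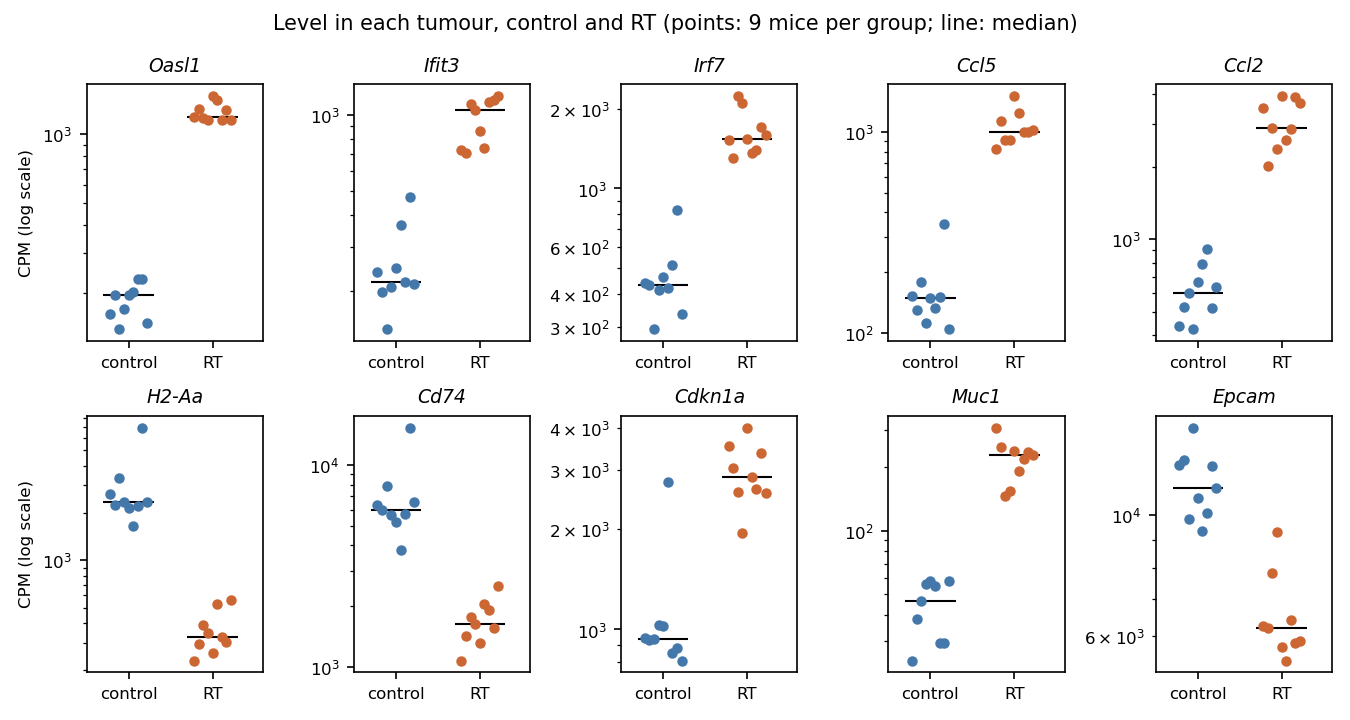
CPM on a log scale of 10 genes in each of the 9 control and 9 RT tumours (points are mice, lines are medians). All RT mice lie above all control mice for Oasl1, Ifit3, Irf7, Ccl5, Ccl2 and Muc1 and below them for H2-Aa, Cd74 and Epcam, while Cdkn1a overlaps through 1 control mouse.

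Among class II genes of antigen presentation, which display peptides to CD4 T cells, the chains of I-A and their regulator fell steeply. Of 7 tested members 4 fell and 1 rose (4 and 2 with reference-gene scaling), with a median log2 fold change of -2.03, the largest shift in either direction among the lists described here. H2-Aa, which encodes the I-A α chain, was at 1663, 2346 and 6981 CPM in control and at 230.0, 325 and 557 CPM in RT tumours, which is 8.02-fold lower (log2 fold change -3.0, SE 0.33, adjusted p = 1.04e-08). The highest RT mouse was below the lowest control mouse. Its partner H2-Ab1 was 7.03-fold lower, at 884, 1068 and 3354 CPM against 136, 177 and 293 CPM (log2 fold change -2.81, SE 0.31, adjusted p = 7.63e-09), and the invariant chain Cd74, which escorts class II molecules, 4.08-fold lower, at 3814, 5974 and 15276 CPM against 1078, 1641 and 2514 CPM (log2 fold change -2.03, SE 0.27, adjusted p = 2.03e-07). Neither gene overlapped between groups. Ciita, the activator without which class II genes are silent, was at 56.2, 90.6 and 688 CPM against 26.7, 32.1 and 68.1 CPM (log2 fold change -2.06, SE 0.42, adjusted p = 0.000175). Control mouse 8 held the highest control value for these genes; without it the falls were smaller for Ciita (-1.29, adjusted p = 0.000945) and close to the full value for H2-Aa (-2.74, adjusted p = 1.48e-08). H2-DMa, a chain of the peptide-loading molecule H2-DM, rose by 0.63 (adjusted p = 0.00106). The cathepsin Ctss, which trims the invariant chain, and the reductase Ifi30 were not called (0.18, adjusted p = 0.274, and 0.01, adjusted p = 0.922), although Ctss was called higher with reference-gene scaling (adjusted p = 0.0144). H2-Eb1, the β chain of the other class II molecule I-E, had no count in any mouse of the 4 groups. If its amplicon works, this allows up to 0.22 CPM over the control and 0.171 CPM over the RT group. Whether the amplicon detects the transcript in this strain was not tested, so absence of I-E is not shown.

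Several cell types carry class II molecules, and in whole tumour RNA fewer such cells and less transcript per cell cannot be told apart. The summed level of 9 tested dendritic cell genes was 1342, 1535 and 2154 CPM in control and 1302, 1489 and 1592 CPM in RT tumours. For 18 macrophage and monocyte genes the sums were 60983, 89078 and 115671 CPM and 74944, 84401 and 111473 CPM, and for 3 B and plasma cell genes 366, 617 and 1035 CPM and 651, 710.2 and 908 CPM. All of these sums overlapped between the groups. Such sums, here and below, are weighted to their most abundant amplicons and do not measure cell number. Of the 9 dendritic cell genes 5 fell. The part of cell numbers in the class II fall was not tested. The upstream bases of H2-Aa are shown with the CCAAT box in capitals, here on the opposite strand, an element shared by class II promoters and many others (42.3% of the tested genes with a promoter in the table had one).
H2-Aa, chr17:34287824-34288023, minus strand: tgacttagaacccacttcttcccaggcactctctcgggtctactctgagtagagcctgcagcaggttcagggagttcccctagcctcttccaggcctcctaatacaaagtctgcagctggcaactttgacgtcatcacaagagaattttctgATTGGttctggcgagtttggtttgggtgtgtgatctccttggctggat
The same box was present for H2-DMa, which rose, and Cd74 and Ciita were not in the table.

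Class I genes, whose products present peptides to CD8 T cells, lay on the other side. Of 14 tested members 6 rose and none fell (10 and none with reference-gene scaling), with a median log2 fold change of 0.23. The transporter subunit Tap2 rose from 0, 3.76 and 8.29 CPM to 5.68, 8.02 and 13.1 CPM (log2 fold change 1.23, SE 0.28, adjusted p = 0.000505), both low levels. Calr, the chaperone calreticulin, rose 1.48-fold (log2 fold change 0.57, SE 0.14, adjusted p = 0.0016). H2-K1, a classical class I heavy chain with near-identical relatives in the genome, rose 1.34-fold and its light chain B2m 1.27-fold, each with 2 of 9 RT mice above every control mouse. The B2m call was lost when RT mouse 25 or RT mouse 27 was left out (adjusted p = 0.0514 and 0.055). Without control mouse 8, the number of class I genes that rose was 8.

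Genes that answer mainly to interferon-γ showed no common direction: 2 of 10 rose, 1 fell and 7 did not pass the test. The chemokine Cxcl10, which draws activated T cells, was at 7.53, 17.4 and 90.0 CPM against 41.6, 57.4 and 68 CPM (log2 fold change 1.04, SE 0.38, adjusted p = 0.0255). All 9 RT mice lay between 41.6 and 68 CPM, within the control range because control mouse 8 reached 90.0 CPM; without that mouse the log2 fold change was 1.53, adjusted p = 0.000463, whereas the call was lost without control mouse 1, 3, 4 or 7 (adjusted p = 0.0522, 0.0558, 0.0578 and 0.0503). Nos2, the inducible nitric oxide synthase of activated macrophages, rose 1.85-fold (log2 fold change 0.89, SE 0.30, adjusted p = 0.0156). Pdcd1lg2, the PD-1 ligand PD-L2, was at 21.6, 27.9 and 166 CPM against 6.52, 9.40 and 23.6 CPM and fell, by 2.05 with control mouse 8 and to a log2 fold change of -1.49, adjusted p = 0.000336 without it. Cd274, the PD-1 ligand PD-L1 that BA binds, was not called at 110.2, 155 and 912 CPM against 148, 206 and 365 CPM (log2 fold change -0.18, SE 0.33, adjusted p = 0.7). Cxcl9, a second attractant of T cells, was not called either (log2 fold change -1.19, SE 0.64, adjusted p = 0.138); control mouse 8 stood at 3060.4 CPM, and without it the log2 fold change was 0.07.

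**Figure D3:**
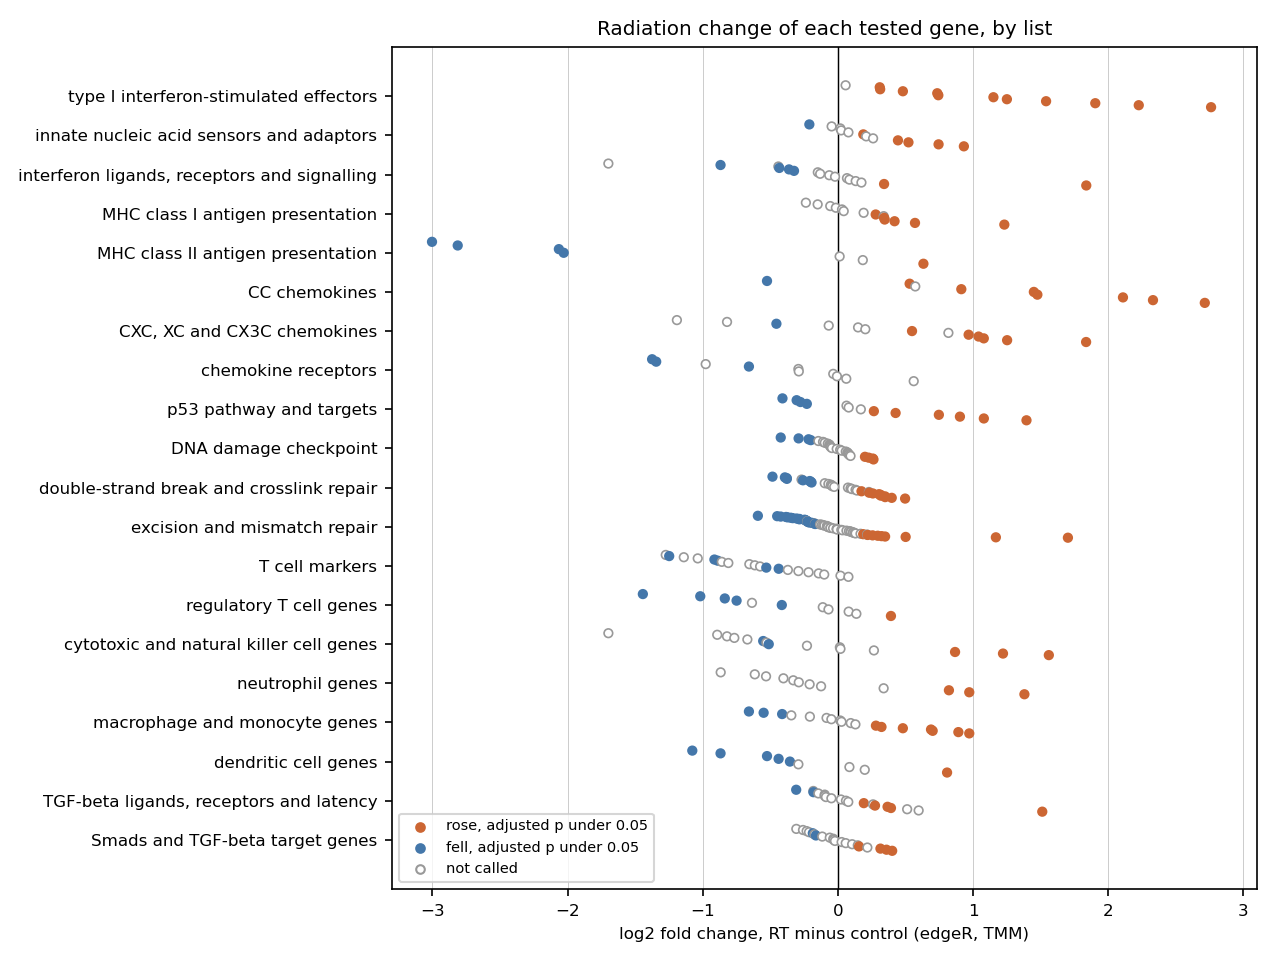
Log2 fold change (RT minus control, horizontal axis) of each tested gene in 20 gene lists (rows); filled points passed an adjusted p of 0.05, orange for higher and blue for lower in RT, and open points did not. Type I interferon effectors and CC chemokines lie mostly to the right of 0, MHC class II genes mostly to the left, and the DNA repair lists close to 0 except for Msh4 and Mgmt.

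Genes of the p53 pathway, a list that holds Trp53 itself and stress-induced genes, were split. The part of p53 in these changes was not tested. Of 13 tested genes of the pathway 6 rose and 4 fell, and with reference-gene scaling 9 rose and none fell. Cdkn1a, which encodes the cell cycle inhibitor p21, was at 806, 937 and 2760.4 CPM in control and 1946, 2868 and 4015 CPM in RT tumours (log2 fold change 1.39, SE 0.19, adjusted p = 3.5e-07). Only control mouse 6, at 2760 CPM, reached the RT range, and the other control mice lay between 806 and 1030 CPM. Gadd45b, a stress-induced gene, was at 347, 444 and 631 CPM against 701, 931 and 1163 CPM with no overlap (log2 fold change 1.08, SE 0.12, adjusted p = 1.38e-08). Its relative Gadd45g rose 1.87-fold, with control mouse 6 again the one control in the RT range. The death receptor Fas rose 1.68-fold (log2 fold change 0.75, SE 0.17, adjusted p = 0.000511). Trp53 itself was at 1719.9, 1864 and 2242 CPM against 2324, 2667 and 2764 CPM, a small rise without overlap (log2 fold change 0.43, SE 0.05, adjusted p = 1.1e-07), and the cell death effector Bax rose by 0.27 (adjusted p = 0.00685). Ddb2, which recognises ultraviolet damage, fell by 0.31 and Gadd45a by 0.41; with reference-gene scaling neither was called (adjusted p = 0.114 and 0.166).

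Checkpoint and repair genes changed little in size. Among 26 DNA damage checkpoint genes 4 rose and 4 fell, all within 0.42 on the log2 scale, and 12 rose and 1 fell with reference-gene scaling. Atrx, a chromatin remodeller, had no overlap between groups at 4319.8, 5109 and 5686 CPM against 3294, 3846 and 4276 CPM (log2 fold change -0.42, SE 0.06, adjusted p = 1.77e-06). Atr, the kinase that senses stalled replication, and the cohesin subunit Smc1a fell by 0.29 and, without overlap, by 0.22, calls that were lost with reference-gene scaling (adjusted p = 0.0733 and 0.273). Atm, the kinase that senses double-strand breaks, rose by 0.26 (adjusted p = 0.0151), but not without RT mouse 25 or RT mouse 27 (adjusted p = 0.0726 and 0.0798) or with only RT and control mice in the fit (adjusted p = 0.0638). Cdc25a, a phosphatase that drives the cell cycle, rose by 0.20 (adjusted p = 0.00323).

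Of 31 tested genes of double-strand break and crosslink repair 10 rose and 8 fell, against shares of 20.5% and 21.1% over all genes. Fanca, a gene of the Fanconi pathway of crosslink repair, rose 1.41-fold, from a median of 532 CPM to one of 711 CPM (log2 fold change 0.50, SE 0.16, adjusted p = 0.0109), and Fancd2 of the same pathway 1.27-fold. The call of Fancd2 was lost after thinning to a common depth (adjusted p = 0.0756). Falls were measured for 2 end-joining genes, the ligase cofactor Xrcc4 at 842, 963 and 1095 CPM against 559, 612 and 857 CPM (log2 fold change -0.48, SE 0.08, adjusted p = 7.6e-06) and the Ku80 gene Xrcc5 at 1890.0, 2082 and 2416 CPM against 1434, 1619 and 2050.2 CPM (log2 fold change -0.38, SE 0.06, adjusted p = 6.29e-06). Brca2, a gene of homologous recombination and of the Fanconi pathway, fell without overlap (-0.39, adjusted p = 1.82e-06), and the helicase Wrn fell with overlap (-0.38, adjusted p = 0.00053). These genes were picked from the list by size of change, and pathways within it were not compared.

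Of 57 tested genes of excision and mismatch repair 9 rose and 20 fell, but 20 rose and 4 fell with reference-gene scaling. The largest rise was that of Msh4, a MutS relative of meiosis, at low levels of 1.84, 8.99 and 18.2 CPM against 20.8, 31 and 40.3 CPM without overlap (log2 fold change 1.70, SE 0.30, adjusted p = 2.36e-05). Mgmt, which removes alkyl groups from guanine, went from 127, 164 and 400.4 CPM to 243, 407 and 568 CPM (log2 fold change 1.17, SE 0.19, adjusted p = 6.34e-06), with control mouse 6 the highest control at 400.0 CPM and the others at 127 to 223 CPM. The mismatch repair gene Pms1 fell by 0.45 (adjusted p = 4.56e-05), and Ccnh, a cyclin of the repair and transcription factor TFIIH, by 0.35 (adjusted p = 1.81e-06). The groups did not overlap for Ccnh, and both genes were still called lower with reference-gene scaling, at log2 fold changes of -0.29 and -0.18.

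Few genes of proliferation were on the panels. Myc, a driver of growth, rose 1.42-fold, from 4778, 5982 and 6824 CPM to 6584, 8387 and 10307 CPM (log2 fold change 0.51, SE 0.06, adjusted p = 4.72e-08). Pcna, the replication clamp, fell by 0.28 (adjusted p = 0.000711; adjusted p = 0.243 with reference-gene scaling), and the proliferation marker Mki67 was not called (-0.17, adjusted p = 0.0833). Mki67 was called lower without control mouse 1, 4 or 8 and without RT mouse 19 or 27, with log2 fold changes from -0.23 to -0.21, and with DESeq2 (adjusted p = 0.0486). Among 9 apoptosis genes 4 rose and 2 fell (6 and 1 with reference-gene scaling). The survival gene Bcl2l1 rose without overlap, from 2362, 2682 and 3058 CPM to 3188, 3505 and 3793 CPM (log2 fold change 0.37, SE 0.05, adjusted p = 1.93e-07), whereas its relative Bcl2 fell (-0.51, adjusted p = 0.00479).

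Chemokines of the CC family, which attract monocytes and lymphocytes, were among the genes that rose most. Of 9 tested members 7 rose and 1 fell, with a median log2 fold change of 1.45. Ccl5, an attractant of T cells and monocytes, was at 104, 149.6 and 349 CPM in control and 827, 1003 and 1513 CPM in RT tumours (6.56-fold; log2 fold change 2.71, SE 0.19, adjusted p = 2.19e-13). Ccl2, which draws monocytes, was at 424, 597 and 915 CPM against 2018, 2887 and 3924 CPM (5.03-fold; log2 fold change 2.33, SE 0.26, adjusted p = 7.63e-09), and its neighbour Ccl7 at 611, 770.3 and 1389 CPM against 2417, 3558 and 5790.2 CPM (4.31-fold; log2 fold change 2.11, SE 0.30, adjusted p = 7.89e-07). None of these overlapped between groups. Ccl4 and Ccl3, inflammatory attractants of leukocytes, rose 2.78-fold and 2.73-fold without overlap. Ccl12 rose 1.88-fold with 8 of 9 RT mice above every control mouse, and Ccl25 1.44-fold. Ccl17, a ligand of CCR4 made by dendritic cells, fell by 0.52 (adjusted p = 0.00172), a call lost with reference-gene scaling (adjusted p = 0.0691).

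Of 13 tested CXC, XC and CX3C chemokines 6 rose and 1 fell. Cxcl3, a neutrophil attractant, rose 3.57-fold, from 8.29, 23.5 and 49.4 CPM to 54.6, 96.3 and 189.6 CPM without overlap (log2 fold change 1.84, SE 0.34, adjusted p = 5.28e-05). Cxcl5 and Cxcl1, which act on the same receptor, rose 1.95-fold and 1.46-fold (adjusted p = 0.00528 and 0.00225), and the platelet chemokines Pf4 and Ppbp 2.38-fold and 2.11-fold (adjusted p = 0.000395 and 0.00509). Cx3cl1, a membrane-bound chemokine, fell by 0.46 (adjusted p = 0.00178). The upstream bases of Cxcl3 are shown because many inflammatory chemokines respond to NF-κB, and capitals mark its match to GGGANTTTC, a form of the κB site.
Cxcl3, chr5:90785901-90786100, plus strand: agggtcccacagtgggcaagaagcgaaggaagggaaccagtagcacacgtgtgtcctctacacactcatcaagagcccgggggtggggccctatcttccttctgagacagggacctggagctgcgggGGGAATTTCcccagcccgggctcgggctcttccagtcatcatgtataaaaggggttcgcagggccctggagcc
This form was found in windows of 250 bases for 4 of the 11 genes of the list in the table (36.4%: Cxcl1, Cxcl2, Cxcl3 and Cxcl9), for 3.09% of all tested genes and for 1.11% of all genes of the table. Of the tested genes that rose 3.29% held this form. Of the carriers in the list Cxcl1 and Cxcl3 rose, and Cxcl2 and Cxcl9 were not called. Among the CC chemokines, most of which rose, 0 of 4 in the table held it.

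No tested receptor for chemokines was called higher, against 20.5% of all tested genes. Of 10 tested 3 fell (30%, against 21.1% of all tested genes), and with reference-gene scaling 3 fell and 1 rose. Without control mouse 8, and also without RT mouse 24, 5 fell. Cxcr3, the receptor for Cxcl9 and Cxcl10 on activated T and NK cells, was 2.54-fold lower, at 163, 211 and 234 CPM against 44.6, 74.1 and 130.5 CPM with no overlap (log2 fold change -1.34, SE 0.19, adjusted p = 7.98e-07). Ccr9, a gut-homing receptor that binds Ccl25, was low in both groups and 2.59-fold lower in RT (log2 fold change -1.37, SE 0.34, adjusted p = 0.00135). Ccr2, the receptor for Ccl2 on monocytes, was at 519, 838 and 1244 CPM against 213, 562 and 655 CPM (log2 fold change -0.66, SE 0.15, adjusted p = 0.000457). Receptor and ligand thus moved in opposite directions for Ccr2 and Ccl2 and for Cxcr3 and Cxcl10, and not all pairs were compared. The Cxcl10 call was lost without control mouse 1, 3, 4 or 7. Cxcl9, a second ligand of Cxcr3, was not called, and its log2 fold change was negative only with control mouse 8.

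Among 9 inflammatory cytokines and myeloid growth factors 3 rose and none fell. Tnf was at 60.1, 90.7 and 159 CPM against 164, 236 and 326 CPM (2.3-fold; log2 fold change 1.20, SE 0.16, adjusted p = 3.54e-07), Csf1, the growth factor of macrophages, at 837, 1118 and 1471 CPM against 1564, 1807 and 1988 CPM (1.6-fold; log2 fold change 0.67, SE 0.08, adjusted p = 3.77e-08), and the prostaglandin synthase Ptgs2 at 1085, 1505 and 1963 CPM against 1982, 2442 and 2752 CPM (1.56-fold; log2 fold change 0.64, SE 0.11, adjusted p = 1.3e-05). All 3 separated the groups completely. Il6 was not called (log2 fold change -0.04, SE 0.28, adjusted p = 0.927).

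Of 15 tested interleukins and their receptors on lymphocytes and other cells 6 rose and 4 fell. The decoy receptor Il13ra2, which traps interleukin-13, rose 3.69-fold (3.17, 5.54 and 15.8 CPM against 18, 24 and 39.1 CPM, with no overlap; log2 fold change 1.88, SE 0.28, adjusted p = 1.5e-06). The interleukin-21 receptor Il21r rose 2.56-fold and the lymphocyte survival cytokine Il7 1.77-fold, both without overlap. Il2rg, the common γ chain, and Il17ra rose 1.36-fold and 1.31-fold (adjusted p = 0.000756 and 6.61e-05). On the other side, the interleukin-1 decoy receptor Il1r2 was at 265, 403 and 659 CPM against 182, 219 and 258 CPM (log2 fold change -0.92, SE 0.15, adjusted p = 5.37e-06), and the signalling receptor Il1r1 at 660.3, 817 and 916 CPM against 446, 523 and 642 CPM (log2 fold change -0.58, SE 0.09, adjusted p = 1.86e-06). Neither overlapped. Csf2rb, the shared β chain of the receptors for GM-CSF, interleukin-3 and interleukin-5, fell by 0.50 (adjusted p = 7.67e-06).

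T cell transcripts had low counts in these tumours. Of 20 tested T cell markers 5 fell (25%, against 21.1% of all tested genes) and none rose. The median log2 fold change was -0.60 against -0.01 over all tested genes, and without RT mouse 24 the number that fell was 13. Cd2, an adhesion molecule of T and NK cells, was at 4.69, 10.8 and 30.9 CPM against 1.11, 4.13 and 22 CPM (log2 fold change -1.25, SE 0.38, adjusted p = 0.00837). Zap70, the kinase of the T cell receptor, fell by 0.91 (adjusted p = 0.0107). Itm2a fell by 0.53, a call that was lost with reference-gene scaling (adjusted p = 0.0988), under which 2 markers fell. The lineage markers themselves were not called. Cd3e was at 3.08, 7.75 and 25.6 CPM against 1.51, 4.22 and 31.5 CPM (-0.58, adjusted p = 0.362), Cd4 at 2.35, 7.46 and 18.8 CPM against 0.938, 3.34 and 11.3 CPM (-1.04, adjusted p = 0.06), and Cd8a at 0.616, 2.35 and 15.9 CPM against 0, 1.03 and 9.52 CPM (-1.14, adjusted p = 0.181). Without RT mouse 24 all 3 were called lower, at log2 fold changes of -1.38, -1.47 and -1.91 (adjusted p = 0.0094, 0.00817 and 0.0272). Cd4 was also called lower without control mouse 2, 5 or 9 (adjusted p = 0.0441, 0.036 and 0.038) and with DESeq2 (adjusted p = 0.0497). Ccr7, the homing receptor of naive T cells and mature dendritic cells, was called lower when RT mouse 24 was left out (-0.52, adjusted p = 0.0285, against -0.29, adjusted p = 0.286 with all mice).

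The summed level of the 20 markers was 2769, 3213 and 3816 CPM in control and 2019.8, 2458 and 2815 CPM in RT tumours, a sum to which Itm2a, also expressed outside T cells, contributed most (1403, 1675 and 2661 CPM against 814, 1362 and 1820.0 CPM).

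Of 11 tested genes of regulatory T cells, which restrain other T cells, 5 fell and 1 rose (3 and 2 with reference-gene scaling). Ctla4, which competes for costimulatory ligands, was at 3.70, 7.04 and 15.9 CPM against 0.469, 2.37 and 8.33 CPM (2.72-fold lower; log2 fold change -1.44, SE 0.47, adjusted p = 0.0133). Tnfrsf18, the receptor GITR, was at 22.9, 30.8 and 45.3 CPM against 12.9, 18.8 and 37.5 CPM (log2 fold change -0.75, SE 0.19, adjusted p = 0.00178), and Lag3, an inhibitory receptor shared with activated T cells, at 9.79, 15.9 and 17.9 CPM against 4.97, 7.74 and 16 CPM (log2 fold change -0.84, SE 0.22, adjusted p = 0.00247). Icos fell by 1.02 (adjusted p = 0.0216), but not without control mouse 8 (adjusted p = 0.0582) or with reference-gene scaling (adjusted p = 0.0768). Entpd1, the ectonucleotidase CD39, fell by 0.42 (adjusted p = 0.000187, and 0.11 with reference-gene scaling). Foxp3, the lineage factor, was at 3.76, 5.33 and 10.2 CPM against 0.668, 3.87 and 7.74 CPM and was not called (log2 fold change -0.64, SE 0.26, adjusted p = 0.0511), near the threshold: it was called lower when RT mouse 22 or 24 or control mouse 2, 3, 4, 7 or 9 was left out, with log2 fold changes from -0.82 to -0.67.

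Cytotoxic and natural killer cell genes were split, with 3 rises and 2 falls among 15 tested. These shares, 20% and 13.3%, did not exceed the 20.5% and 21.1% of all tested genes. Gzmm, a granzyme of NK cells, rose 2.95-fold, from 3.19, 7.27 and 9.33 CPM to 12.2, 20.5 and 23.1 CPM without overlap (log2 fold change 1.56, SE 0.22, adjusted p = 7.44e-07). Gzmc rose 2.33-fold with 8 of 9 RT mice above every control mouse (log2 fold change 1.22, SE 0.25, adjusted p = 0.000208). The falls were those of the collagen-binding integrins Itga2, at 4649, 4924 and 5514 CPM against 2901, 3451 and 4417 CPM with no overlap (log2 fold change -0.51, SE 0.08, adjusted p = 5.82e-06), and Itga1 (log2 fold change -0.55, SE 0.09, adjusted p = 3.17e-06), which mark NK cells but are also made by epithelial and stromal cells. The classical effectors perforin, Prf1, and granzyme B, Gzmb, were not called (-0.23, adjusted p = 0.767, and 0.27, adjusted p = 0.69). No tested gene of the 3 on the B and plasma cell list was called, although 2 were called higher with reference-gene scaling.

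Of 12 tested neutrophil genes 3 rose (25%, against 20.5% of all tested genes) and none fell, and 4 rose and 1 fell without control mouse 8. The median log2 fold change of the list was -0.25, opposite in sign to the called members. Ceacam1, an adhesion molecule of neutrophils and epithelia, rose 2.6-fold, from 23.6, 34.5 and 60.6 CPM to 60.3, 97 and 121 CPM (log2 fold change 1.38, SE 0.21, adjusted p = 1.81e-06). Itgam, the CD11b chain of myeloid cells, rose 1.96-fold without overlap (327, 443 and 584 CPM against 708, 917 and 1107 CPM; log2 fold change 0.97, SE 0.10, adjusted p = 5.58e-10). Fpr1, a receptor for bacterial peptides, rose 1.77-fold (log2 fold change 0.82, SE 0.24, adjusted p = 0.00652), whereas its relative Fpr2 was not called (0.34, adjusted p = 0.0569) unless reference-gene scaling was used or control mouse 1 or 8 or RT mouse 20 or 22 was left out (adjusted p from 0.00502 to 0.0487). The summed level of the neutrophil list was 7811, 10922 and 14289 CPM in control and 6774, 8959.9 and 14826 CPM in RT tumours.

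Macrophage genes changed in both directions, with 7 rises and 3 falls among 18 tested. Cd68, a lysosomal protein of macrophages, rose from 798, 895 and 1118 CPM to 1185, 1517 and 1741 CPM without overlap (log2 fold change 0.70, SE 0.06, adjusted p = 1.56e-10), and Adgre1, the F4/80 antigen, from 261, 339 and 447 CPM to 379.8, 590.2 and 887 CPM (log2 fold change 0.69, SE 0.12, adjusted p = 2.34e-05). Msr1, a scavenger receptor, rose 1.39-fold (log2 fold change 0.48, SE 0.09, adjusted p = 5.06e-05). Csf1r, the receptor for the growth factor Csf1, went the other way, from 1312, 1718 and 1992 CPM to 911, 1133 and 1319 CPM (log2 fold change -0.55, SE 0.09, adjusted p = 4.11e-06). Of the arginine-degrading enzymes, Arg2 fell by 0.41 (adjusted p = 0.0127; adjusted p = 0.236 with reference-gene scaling). Arg1 rose 1.22-fold (adjusted p = 0.0238), and this call was lost without control mouse 5, 7, 8 or 9 or RT mouse 21, 25, 26 or 27 (log2 fold changes 0.21 to 0.25) and with only RT and control mice in the fit (adjusted p = 0.065).

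Dendritic cell genes fell in 5 of 9 cases and rose in 1 (2 each with reference-gene scaling). Cd83, a marker of mature dendritic cells, was at 58.8, 122 and 183 CPM against 40.8, 54.5 and 97.5 CPM (log2 fold change -1.08, SE 0.20, adjusted p = 3.31e-05); its lowest control value, 58.8 CPM, was that of mouse 6. The costimulatory ligand Cd80 rose 1.75-fold, with 8 of 9 RT mice above every control mouse (log2 fold change 0.81, SE 0.14, adjusted p = 1.08e-05). Cd1d1, which presents lipids to NKT cells, and Cd40, the receptor for T cell help, fell by 0.44 and 0.36, and neither was called with reference-gene scaling (adjusted p = 0.0659 and 0.329). Among 8 genes of mast cells, basophils and eosinophils 2 fell: Kit, the stem cell factor receptor, from 58.7, 85.1 and 109 CPM to 19.6, 30.1 and 51.4 CPM without overlap (log2 fold change -1.37, SE 0.18, adjusted p = 1.69e-07), and Siglecf of eosinophils and some macrophages (log2 fold change -0.92, SE 0.24, adjusted p = 0.00197). The summed level of that list was 237, 314 and 587 CPM in control and 180.4, 307 and 424 CPM in RT tumours.

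Inhibitory ligands and receptors of T cells moved in both directions, 5 up and 7 down among 21 tested (7 and 4 with reference-gene scaling). Vtcn1, the ligand B7-H4, was low in control tumours at 0, 1.91 and 6.02 CPM and stood at 8.13, 9.04 and 19.6 CPM in RT tumours, with no overlap (log2 fold change 2.23, SE 0.37, adjusted p = 7.82e-06). Tigit was at 87.5, 155 and 217 CPM against 191, 299.9 and 403 CPM (log2 fold change 1.04, SE 0.16, adjusted p = 4.3e-06), whereas every called gene of the T cell marker list fell. Lgals9, the galectin bound by TIM-3, rose 1.57-fold without overlap, and Havcr2, which encodes TIM-3, 1.5-fold with 8 of 9 RT mice above every control mouse. Cd200r1, an inhibitory receptor of myeloid cells, rose 1.44-fold (adjusted p = 1.51e-06). Kynu, an enzyme of tryptophan breakdown, was 3.45-fold lower, at 60.6, 109 and 202 CPM against 26.1, 31.7 and 50.7 CPM with no overlap (log2 fold change -1.79, SE 0.18, adjusted p = 7.22e-10). Of 20 costimulatory genes 3 rose and 5 fell (6 and 2 with reference-gene scaling, 2 and 3 without control mouse 8). Tnfsf4, the ligand OX40L, rose 4.7-fold at low levels, from 0.933, 2.35 and 5.31 CPM to 5.53, 11.9 and 17.2 CPM without overlap (log2 fold change 2.23, SE 0.26, adjusted p = 1.9e-08). Tnfrsf9, the receptor 4-1BB, fell from 97.9, 122 and 166 CPM to 29.6, 68.2 and 124 CPM (log2 fold change -0.87, SE 0.22, adjusted p = 0.00173).

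TGF-β is made by tumour and stromal cells, restrains T cells and drives fibrosis. Of 19 ligands, receptors and latency genes 5 rose and 2 fell (9 and none with reference-gene scaling, 8 and 3 without control mouse 6). Grem1, an antagonist of bone morphogenetic proteins, was at 202, 328 and 843 CPM against 939, 1121 and 1347 CPM without overlap (log2 fold change 1.51, SE 0.19, adjusted p = 5.97e-08). The receptor Tgfbr2 and the endothelial receptors Acvrl1 and Eng rose by 0.19, 0.37 and 0.27 (adjusted p = 0.0043, 0.00256 and 0.00685). Inhba, the activin A chain, fell by 0.31 (adjusted p = 0.0083, and 0.259 with reference-gene scaling). Tgfb1 was not called, at 2051, 2787 and 3078 CPM against 2266, 2577 and 2786 CPM (log2 fold change -0.10, SE 0.07, adjusted p = 0.298).

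Of 21 Smads and TGF-β target genes 4 rose (19%) and 2 fell (9.52%), against 20.5% and 21.1% of all tested genes. The counts were 9 and none with reference-gene scaling and 4 and 4 without control mouse 6. They were 1 and 2 without control mouse 8 and RT mouse 24. Ctgf, a target in matrix-producing cells, rose from 13445, 19016 and 28799 CPM to 16817, 27952 and 31339 CPM (log2 fold change 0.40, SE 0.13, adjusted p = 0.0144), but was not called when control mouse 8 and RT mouse 24 were both left out (0.33, adjusted p = 0.0634). Among 10 collagens and matrix proteins 3 rose and 1 fell; the protease inhibitor Timp1 rose 1.51-fold (log2 fold change 0.60, SE 0.14, adjusted p = 0.00101), and the collagens Col1a2 and Col3a1 were not called (-0.13, adjusted p = 0.528, and -0.11, adjusted p = 0.568). Of 11 matrix proteases 2 rose and 3 fell (3 and 1 with reference-gene scaling, none and 3 without control mouse 8 and RT mouse 24). Mmp1a was 3.13-fold lower, at 52.1, 71.8 and 169 CPM against 13.1, 32.4 and 49.7 CPM without overlap (log2 fold change -1.65, SE 0.29, adjusted p = 2.46e-05), Mmp2 rose 1.44-fold (adjusted p = 0.0205, and 0.0714 without control mouse 8 and RT mouse 24), and Mmp9 was not called (-0.21, adjusted p = 0.309).

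Adhesion molecules were split, 6 up and 6 down among 21 (8 and 4 with reference-gene scaling). The share was 28.6% each way, against 20.5% up and 21.1% down over all tested genes. Icam1, the ligand of leukocyte integrins, rose 1.84-fold (117, 145 and 239 CPM against 217, 280.5 and 339 CPM; log2 fold change 0.88, SE 0.14, adjusted p = 4e-06), whereas Vcam1, a ligand of another leukocyte integrin, fell (1035, 1284 and 1609 CPM against 718, 864 and 1141 CPM; log2 fold change -0.52, SE 0.09, adjusted p = 3.56e-05). Itgb2 and Selplg, adhesion proteins of leukocytes, rose 1.39-fold and 1.56-fold (adjusted p = 3.99e-05 and 1.3e-05). The pericyte receptor Pdgfrb fell by 0.63 and the fibroblast protease Fap by 0.46 (adjusted p = 9.07e-06 and 0.00245), the latter not with reference-gene scaling (adjusted p = 0.13). Of the vascular genes, Vegfc, a growth factor of lymphatic vessels, rose from 172, 184 and 221 CPM to 286, 373 and 391 CPM without overlap (log2 fold change 0.94, SE 0.12, adjusted p = 1.93e-07), and Cd34 fell by 0.50 (adjusted p = 0.000966, and 0.0706 with reference-gene scaling). Summed levels of fibroblast and pericyte genes were 58637, 68319.8 and 108508 CPM against 38548, 74969 and 89881 CPM, and those of endothelial genes 5632, 6716 and 7013 CPM against 5845, 6810.4 and 8015 CPM.

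Epithelial genes that 4T1 cells can express changed strongly but not together: of 5 tested 3 rose and 2 fell. The mucin Muc1 was at 24.3, 46.7 and 58.1 CPM in control and 146, 228 and 307 CPM in RT tumours, 4.98-fold higher (log2 fold change 2.32, SE 0.22, adjusted p = 3.41e-10), and the surface protein Msln rose 1.46-fold (log2 fold change 0.55, SE 0.13, adjusted p = 0.00105). The adhesion molecule Epcam was at 9359, 11224 and 14437 CPM against 5407, 6210.0 and 9287 CPM, 1.75-fold lower (log2 fold change -0.81, SE 0.11, adjusted p = 2.95e-07), and the receptor Erbb2 fell by 0.44 (adjusted p = 0.0043). For Muc1 and Epcam the groups did not overlap. The summed level of the 5 genes, to which Epcam contributed most, was 10416, 12391 and 15677 CPM in control and 6938, 7694 and 10673 CPM in RT tumours. The muscle genes Mb and Myod1, from the tissue that surrounded the tumours, were not called (0.37, adjusted p = 0.614, and 0.49, adjusted p = 0.509). Without control mouse 6, Mb was higher in RT (1.44, adjusted p = 0.00951), and the other control mice had 245 to 785 CPM against 342 to 2278 CPM in RT. The part that tumour cell and muscle content played in the changes above was not tested.

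Outside these lists, the largest rises included Ch25h, the enzyme that makes 25-hydroxycholesterol and is known to answer to interferon. It was at 213, 292 and 471 CPM against 919.8, 1208 and 1658 CPM without overlap (log2 fold change 1.97, SE 0.18, adjusted p = 1.56e-10). Hal, which breaks down histidine, rose 2.73-fold (195, 288 and 345 CPM against 555, 746 and 1045 CPM; log2 fold change 1.45, SE 0.14, adjusted p = 5.15e-10), and Bst1, an ectoenzyme of myeloid and stromal cells, 2.68-fold (197, 244 and 298 CPM against 503, 649 and 876 CPM; log2 fold change 1.42, SE 0.10, adjusted p = 4.52e-13); neither overlapped. Calb2 and Piwil2, at low levels, rose 3.57-fold and 3-fold (adjusted p = 0.000107 and 0.00069). Large falls outside the lists were those of Kbtbd11, 2.29-fold lower without overlap (log2 fold change -1.20, SE 0.16, adjusted p = 1.93e-07), and of Lrrn3, 1.99-fold lower (adjusted p = 0.013).

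RT tumours also varied less among themselves than control tumours, but this rested on 1 mouse. The SD of log2 CPM was smaller in RT for 717 of the 1038 genes (69.1%), with a median over genes of 0.25 in control and 0.20 in RT. Without control mouse 6 the number was 530, and without control mouse 8 it was 668. Between BA and BART, the smaller SD was in the irradiated group for 430 genes (41.4%). No test was made of these counts.

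The radiation change was measured again in mice that carried BA. BART minus BA uses 18 other mice and shares none with RT minus control. In BART against BA 555 of the 1038 tested genes were called (53.5%), 281 higher and 274 lower, against 41.6% called without BA. List counts with BA are to be read against these. By the test of the difference itself 86 genes (8.29%) differed between the 2 radiation changes. Of the 432 genes called without BA 389 had the same sign with BA, 299 were called the same way, and 11 were called the other way. The 299 genes make up 69.2% of the calls without BA and 53.9% of those with BA, 147 of them higher and 152 lower. Oasl1 changed by 2.76 without BA and 2.68 with BA on the log2 scale, Ccl5 by 2.71 without BA and 2.09 with BA, Muc1 by 2.32 without BA and 2.86 with BA, H2-Aa by -3.0 without BA and -2.98 with BA, and Cdkn1a by 1.39 without BA and 1.45 with BA. The difference was not called for any of these 5 genes (adjusted p = 0.769, 0.136, 0.299, 0.986 and 0.925), which does not show that the changes are equal. Among interferon effectors 8 of 12 rose with BA, and among class II genes 5 of 7 fell.

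Of 18 macrophage genes 7 differed in their radiation change, against 8.29% of all genes. In BART against BA 3 of the 18 rose and 8 fell, where 7 had risen and 3 fallen without BA. Over all 1038 tested genes 281 rose and 274 fell in BART against BA. The log2 fold change of Msr1 was 0.48 without BA and -0.35 with BA (difference -0.83, SE 0.13, adjusted p = 0.000138). Its median was 306 CPM in control, 389.7 with BA, 397 with RT and 310.3 with BART. That of Arg1 was 0.28 without BA and -0.36 with BA (difference -0.64, adjusted p = 0.00399), that of Itgb2 0.47 without BA and -0.30 with BA (difference -0.77, adjusted p = 0.000159) and that of Itgam 0.97 without BA and 0.32 with BA (difference -0.65, adjusted p = 0.00259). For Hal and Bst1 the rise was smaller with BA (1.45 without BA and 0.35 with BA for Hal, and 1.42 without BA and 0.70 with BA for Bst1; adjusted p of the differences 0.000789 and 0.00191). Calr rose without BA and fell with it (0.57 without BA and -0.36 with BA; adjusted p = 0.00328).

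More T cell markers were called lower with BA than without it: 14 of 20 fell and 2 rose in BART against BA. Over all 1038 tested genes 274 fell with BA and 219 without it. By the test of the difference 3 of the 20 markers (Ccr7, Eomes and Itm2a) differed. For Foxp3 the log2 fold change was -0.64 without BA and -2.02 with BA (difference -1.38, SE 0.36, adjusted p = 0.0125), for Tnfrsf18 -0.75 without BA and -1.90 with BA (difference -1.15, adjusted p = 0.00528) and for Ccr7 -0.29 without BA and -1.50 with BA (difference -1.20, adjusted p = 0.00845). Medians of Foxp3 were 5.33 CPM in control, 16.3 with BA, 3.87 with RT and 4.15 with BART, the highest of them in the BA group. Itm2a fell without BA and rose with it (-0.53 without BA and 0.60 with BA; adjusted p = 0.000789), and Msln rose further with BA (0.55 without BA and 1.41 with BA; adjusted p = 0.00328). Of 7 tested cell cycle genes 2 rose and 2 fell in BART against BA. Fzr1, an activator of the anaphase-promoting complex, had a log2 fold change of 0.11 without BA and 0.62 with BA, and Hells, a chromatin remodeller of dividing cells, one of 0.04 without BA and 0.66 with BA (adjusted p of the differences 0.00164 and 0.00328).

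**Figure D4:**
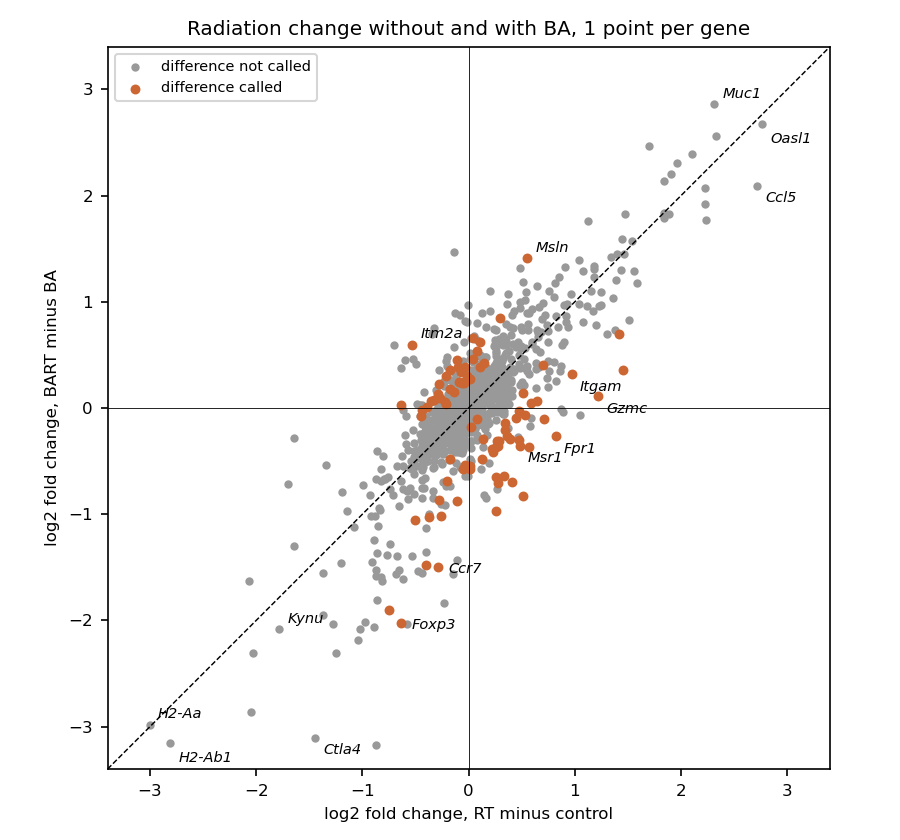
Log2 fold change with radiation in mice without BA (RT minus control, horizontal axis) and with BA (BART minus BA, vertical axis), 1 point per tested gene; the dashed line marks equal change. Orange points are the 86 genes whose 2 radiation changes differed at an adjusted p under 0.05; Oasl1, Muc1 and H2-Aa lie far from the centre, and Foxp3, Msr1 and Itm2a lie off the line.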

How the data were processed

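Each tumour was read on both amplicon panels, and counts per amplicon were taken as deposited by the authors; whether they are reads or molecules is not stated. The submitters' processing notes name DESeq2 and the builds GRCm38 and GRCh38. The deposited positions are those of GRCm38, since the amplicons of 1223 of 1224 genes lay in the gene they name (GENCODE vM21), although the column header names GRCh38. The authors' deposited rlog table (log2 scale) served as an alternative only. Genomic DNA control rows (19 counts in all) were dropped. Each panel was normalized on its own (TMM), and a gene on both panels was taken from the panel with the larger total. Genes passing filterByExpr were fitted over all 4 groups with edgeR 4.0.16 (R 4.3.3, quasi-likelihood, robust), and p-values were adjusted over 1038 genes (Benjamini-Hochberg). Adjusted p-values in the text come from this test unless another is named. Log2 CPM used a prior count of 2. SE is the absolute log2 fold change over the square root of F. On simulated data of the same design (1022 genes) 69.4% of genes changed by 0.5 and 93.8% of those changed by 1 (log2) were called. The members, the gene lists and the tests were chosen with earlier results of these data known. The text names, per list, up to 8 called genes by absolute log2 fold change and up to 3 others by mean CPM, and outside the lists the genes with the largest changes or a called difference with BA. The mice of a group were separate animals. Mouse numbers do not pair the groups. Alternatives were DESeq2 1.42.0, limma 3.58.1 on rlog values, other scalings and filters, thinned counts, and leaving out mice. Counting error is only part of the spread between mice. Some genes that the rule would name are not reported here.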

Additional observations from a re-analysis of the deposited data

Results flagged for a closer look

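For each tested gene named in the report, the 9 mice of a group were checked for 1 mouse far from the others. Dixon's test was used on log2 CPM. The total counts of each panel in each group were checked in the same way on the log2 scale. Of the 360 checks 36 exceeded the 95% critical value of 0.493, where chance gives about 1 in 20 groups. All 36 were gene levels. Control mouse 8 accounted for the largest number, all on the high side and many of them genes induced by interferon-γ. The levels there were Zbp1 1630 CPM (others 432 to 685), Ifitm3 8740 CPM (others 5420 to 6890), Adar 1250 CPM (others 699 to 920), Gbp2 8590 CPM (others 1190 to 2940), Tmem173 773 CPM (others 533 to 636), Irf1 5400 CPM (others 1790 to 2210), Ifng 61.2 CPM (others 0 to 4.66), H2-K1 14100 CPM (others 7330 to 9200), H2-Aa 6980 CPM (others 1660 to 3320), H2-Ab1 3350 CPM (others 884 to 1510), Ciita 688 CPM (others 56.2 to 126), Pdcd1lg2 166 CPM (others 21.6 to 49.7), Cd274 912 CPM (others 110 to 259), Wrn 3430 CPM (others 2100 to 2400), Ccl5 349 CPM (others 104 to 178), Lgals9 3020 CPM (others 1940 to 2330) and Icam1 239 CPM (others 117 to 166). In control mouse 6 they were Cdkn1a 2760 CPM (others 806 to 1030), Gadd45g 719 CPM (others 266 to 399), Mgmt 400 CPM (others 127 to 223), Cd83 58.8 CPM (others 108 to 183) and Mb 4780 CPM (others 245 to 785). In RT mouse 24, the mouse rich in T cell transcripts, they were Cd2 22 CPM (others 1.11 to 6.02), Zap70 25.6 CPM (others 8.14 to 13) and Cd3e 31.5 CPM (others 1.51 to 7.69). In RT mouse 23 they were Pcna 5240 CPM (others 4140 to 4550), Msr1 539 CPM (others 379 to 451), Siglecf 12.4 CPM (others 6.63 to 8.91), and in RT mouse 27 Gbp2 4400 CPM (others 1880 to 2660). In RT mouse 22 they were Irf5 206 CPM (others 273 to 327), Ccr2 213 CPM (others 456 to 655), in RT mouse 25 Il6 44.6 CPM (others 73.1 to 101), Il17ra 577 CPM (others 449 to 505), in RT mouse 21 Foxp3 0.668 CPM (others 3.28 to 7.74), Vegfc 286 CPM (others 341 to 391), and in RT mouse 26 Csf1 1560 CPM (others 1770 to 1990).

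For 29 of the genes named, the radiation change differed between mice with and without BA by the test of the difference (edgeR, adjusted over all tested genes), given here as the log2 change with BA minus that without it. Among genes of leukocytes, mostly myeloid ones, the difference was negative in each case: -0.60 for Cd14 (adjusted p = 0.0199), -0.65 for Itgam (adjusted p = 0.00259), -0.77 for Itgb2 (adjusted p = 0.000159), -1.09 for Fpr1 (adjusted p = 0.0397), -0.98 for Fpr2 (adjusted p = 0.00259), -0.30 for Cd68 (adjusted p = 0.0332), -0.83 for Msr1 (adjusted p = 0.000138), -0.64 for Arg1 (adjusted p = 0.00399), -0.58 for Selplg (adjusted p = 0.0143), -0.55 for Csf2rb (adjusted p = 0.00315), -0.59 for Cd200r1 (adjusted p = 0.000984), -0.54 for Havcr2 (adjusted p = 0.0294), -0.48 for Irf5 (adjusted p = 0.0116) and -0.56 for Ifi30 (adjusted p = 0.0035). Among lymphocyte genes it was -1.20 for Ccr7 (adjusted p = 0.00845), -0.54 for Il2rg (adjusted p = 0.0161), -1.15 for Tnfrsf18 (adjusted p = 0.00528), -1.38 for Foxp3 (adjusted p = 0.0125), -1.11 for Gzmc (adjusted p = 0.0456) and 1.13 for Itm2a (adjusted p = 0.000789). Among other genes it was -0.93 for Calr (adjusted p = 0.00328), -0.37 for Myc (adjusted p = 0.0063), -1.10 for Hal (adjusted p = 0.000789) and -0.72 for Bst1 (adjusted p = 0.00191). It was positive for Brca2 and 4 others, at 0.40 for Brca2 (adjusted p = 0.00259), 0.36 for Mki67 (adjusted p = 0.0459), 0.86 for Msln (adjusted p = 0.00328), 0.51 for Fzr1 (adjusted p = 0.00164) and 0.61 for Hells (adjusted p = 0.00328). Some of the 29 were named because of this test, and 86 of the 1038 tested genes differed by it. Of these 86 the difference was positive for 35 and negative for the others. Signs within the groups of genes above were not tested.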

How the results depend on the processing

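The number of genes called was 432, and in the alternatives it was 501 with reference-gene factors, 419 with total counts, 459 with DESeq2, 441 without an expression filter, 388 with only RT and control mice in the fit, 406 after thinning, 435 with the smaller panel for shared genes, 444 with limma on rlog values and 448 without control mouse 8 and RT mouse 24. With reference-gene factors the number higher in RT was 422 in place of 213, and the number lower was 79 in place of 219; by construction these factors level the 9 reference genes, all lower in RT, between libraries. Leaving out 1 mouse at a time gave 399 (without control mouse 2) to 483 (without control mouse 6) called genes, 186 to 249 higher and 203 to 245 lower. List members called were 212, and 199 to 225 with 1 mouse left out. Genes without overlap numbered 79, 88 with reference-gene factors, 68 with total counts and 105 without control mouse 6. The number with the smaller SD in RT was 530 to 668 with control mouse 6 or 8 left out. Calls of BART against BA ranged from 511 (thinned) to 619 (reference genes), and those of the difference from 61 (reference genes) to 111 (DESeq2). None of the 178 tested genes with values in the report was called in opposite directions by any of these. With reference-gene factors 18 lost their call, each named in the report, and 4 gained one (Ctss, Fpr2, Fzr1 and Hells). Leaving out control mouse 6 for the overlap and spread counts was chosen after seeing the data. No paired analysis was possible because the groups share no mouse numbers. Low counts limit some genes: median levels were 7.75 CPM for Cd3e, 1.91 CPM for Vtcn1 and 2.35 CPM for Tnfsf4 in control tumours.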

Other observations

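Genes below the filter on low counts were not tested, and their counts are given as sums over 9 mice. Tnfsf15, the cytokine TL1A, had 42 counts in control and 102 counts in RT tumours, or 3.08 and 5.81 CPM, and 9 counts in BA against 56 in BART tumours. Il5ra, the interleukin-5 receptor of eosinophils, had 3 counts in 3 control mice and 11 counts in 8 RT mice. Cd207, langerin of Langerhans cells, had 5 counts in 3 control mice and 14 counts in 8 RT mice. Mpo, the myeloperoxidase of granules in neutrophil precursors, had 28 counts in control, 17 of them in 1 mouse, and 3 counts in RT tumours. These genes were chosen after their values were seen, and counting intervals for such totals are wide.

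The 51 genes tested on both panels gave a replicate of the assay on the same RNA. The log2 fold change had the same sign on both panels for 47 of them, and the median absolute difference between panels was 0.08.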
